A study of Mus musculus with 12 samples.

Results

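The genes described here encode the subunits of the oxidative phosphorylation machinery, compared between lung and heart and between Adam19 WT and Adam19 KO mice. Members were chosen by gene symbol: the Nduf genes of complex I, the 4 Sdh genes of complex II, the Uqcr genes of complex III, the Cox4 to Cox8 genes of complex IV, the Atp5 genes of complex V and the 13 mRNAs of the mitochondrial genome, without symbols that hold -ps. The rule found 104 of the 55679 genes in the gene table, 91 nuclear and 13 mitochondrial. RNA came from the frozen whole lung and whole heart of 6 adult male 129S6/SvEvTac mice, 9 to 13 weeks old, 3 Adam19 WT and 3 Adam19 KO. Adam19 encodes a membrane-anchored metalloprotease. KO mice are homozygous for Adam19-tdTomato, an allele in every cell of the body in which exons 6 and 7 gave way to an in-frame tdTomato construct. Each tissue of each mouse gave 1 strand-specific total RNA library, 12 in all, so the lung and heart that share a replicate number come from the same mouse. The mouse identifiers have prefixes that WT and KO mice do not share, and prefix and genotype cannot be told apart.

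Complexes I to IV of the inner mitochondrial membrane pass electrons from NADH and succinate to oxygen, and complexes I, III and IV pump protons that complex V, the ATP synthase, uses to make ATP. Complexes I, III, IV and V are built from nuclear and mitochondrial gene products, while all subunits of complex II are nuclear. Heart muscle beats without rest and is packed with mitochondria, and several complex IV subunits have a second gene used mainly in heart and skeletal muscle.

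The deposited values are log2 estimated counts adjusted between libraries, here called log2 values, on 17674788 to 35862932 estimated counts per library. Adam19 itself had log2 values of 9.12 to 9.41 in WT and 3.21 to 4.44 in KO lungs, and of 9.17 to 10.27 and 6.01 to 6.67 in the hearts, so every library matched its genotype label. The tissue labels held as well: Sftpc, the surfactant protein of alveolar type II cells, lay between 16.32 and 17.28 in the lungs and between 4.78 and 7.71 in the hearts. The cytosolic RNA Rn7s1 took 2.10 to 34.0% of the estimated counts of the lungs and 2.70 to 11.8% of those of the hearts. Of the 104 members, 98 passed the filter on low values over the 12 libraries. The other 6 are second or retrotransposed gene models that were at or near 0: Cox8c and Ndufb11b were at 0 in all 12 libraries, and Cox6c2, Cox7b2, Ndufa11b and Ndufs6b did not exceed 3.24.

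To show how much of the messenger RNA these genes take, estimated counts were divided by transcript length and expressed as a share of the abundance of protein-coding genes. The 5 members that the annotation gives other types (Ndufb4b, Ndufb4c, Cox6c2, Ndufa11b and Ndufs6b) are not in this share. The other members together took 4.31% ± 0.612 (SD, n = 6) of it in the lung and 30.7% ± 5.35 (SD, n = 6) in the heart. Lungs ranged from 3.71 to 5.18% and hearts from 26.4 to 39.6%, without overlap. The 13 mitochondrial mRNAs held most of this, 2.68% in the lung and 21.8% in the heart, against 1.63% and 8.99% for the nuclear subunits. These values depend on how reads were split between the mitochondrial mRNAs and their near-identical nuclear copies. With the copies added, these members together took 6.33% ± 0.364 in the lung and 39.9% ± 6.98 in the heart, and the mitochondrial mRNAs 4.73% and 32.0%. Among the nuclear groups of the heart, complex V took 3.18%, complex IV 2.42%, complex I 2.35%, complex III 0.791% and complex II 0.238%. In the lung complexes V, IV and I were close, at 0.499% ± 0.0632, 0.478% ± 0.0611 and 0.470% ± 0.0784 (SD, n = 6), and complex II was again the smallest at 0.0420%. mt-Co1, which encodes the catalytic subunit of complex IV, was the most abundant member per length in both tissues, with 1.41% in the lung and 12.2% in the heart. Atp5b, the catalytic beta subunit of ATP synthase, led the nuclear members in both, with 0.0842% and 0.714%.

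Heart and lung of the same mice differed across nearly the whole set. Of the 98 tested members, 91 were higher in the heart and 1 was lower in WT mice, and 94 were higher and 1 lower in KO mice (limma, adjusted p under 0.05, at least 1.5-fold and a group mean of at least 6). Among all 17666 tested genes, 20.1% were called higher and 29.3% lower in the WT heart, and 20.9% and 28.7% in the KO heart. The median difference of the members was 3.26 on the log2 scale in WT and 3.42 in KO mice, against −0.32 and −0.29 over all tested genes. All RNA of a whole organ was sequenced, so more muscle cells and more RNA per cell cannot be told apart. The members left uncalled in WT were Cox6a1, Cox8a, Ndufa4l2, Cox6b2, Atp5g2 and mt-Co3, of which Cox6a1, Ndufa4l2 and Cox6b2 were also uncalled in KO mice. The member that was lower in both genotypes was Cox4i2, a form of complex IV subunit 4 known from the lung.

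**Figure D1:**
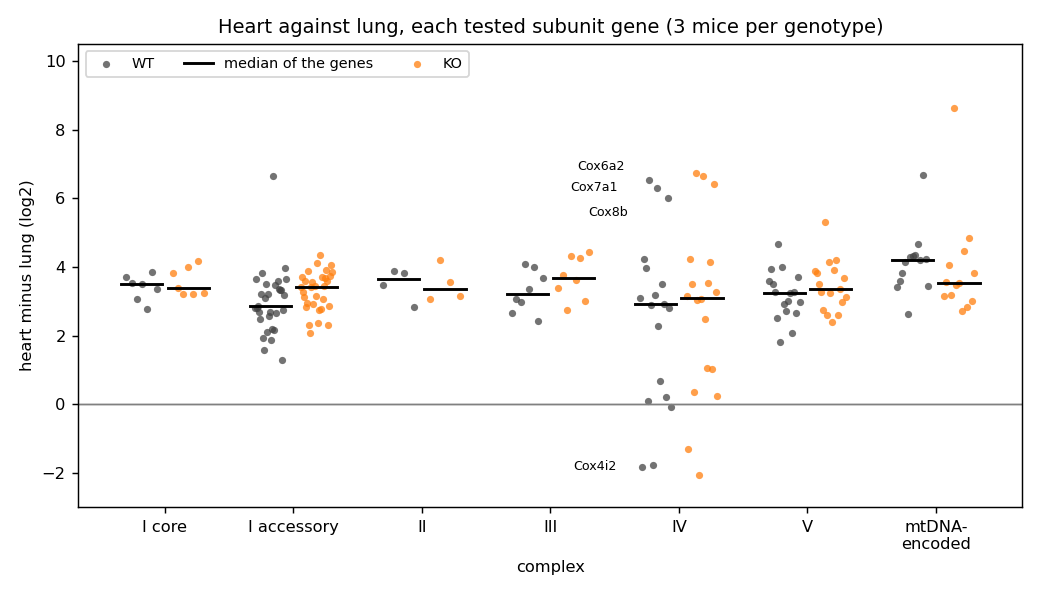
Difference of heart minus lung on the log2 scale (y axis) for each tested subunit gene, grouped by complex (x axis), with WT in grey, KO in orange and black lines at the median of the genes. The medians of all 7 groups lie between 2.86 and 4.20, and the genes at or below 0 all belong to complex IV.

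Complex I takes electrons from NADH through a flavin and a chain of iron-sulfur clusters held by its core subunits. All 7 nuclear core subunits were higher in the heart in both genotypes, with a median difference of 3.51 in WT and 3.39 in KO mice. Ndufs1, the largest core subunit, had log2 values of 10.75, 10.57 and 11.24 in the WT lungs, 10.68, 10.89 and 10.74 in the KO lungs, 14.68, 14.52 and 14.53 in the WT hearts and 14.40, 14.52 and 14.83 in the KO hearts. The 6 hearts lay well above the 6 lungs, and the difference was 3.72 ± 0.18 in WT and 3.81 ± 0.18 in KO mice (adjusted p = 2.03e-09 and 1.76e-09). Ndufv1, which carries the flavin and the NADH site, differed by 3.85 ± 0.25 in WT and 4.18 ± 0.25 in KO mice (adjusted p = 3.46e-08 and 1.76e-08), with values from 9.96 to 10.78 in the lungs and from 13.90 to 14.83 in the hearts. All 31 accessory subunits that were tested were higher in the heart too, with a median of 2.86 in WT and 3.43 in KO mice. Ndufc2, a subunit of the membrane arm, had the smallest difference of the complex in WT, 1.29 ± 0.35 against 2.30 ± 0.35 in KO mice. Its WT lungs were spread from 9.56 to 11.08, with replicate 3 the highest. Ndufa7 was next, at 1.58 ± 0.27 in WT and 2.08 ± 0.27 in KO mice (adjusted p = 0.000213 and 2.15e-05). At the other end, Ndufs6, an accessory subunit of the electron input arm, differed by 3.98 ± 0.34 in WT and 4.06 ± 0.34 in KO mice (adjusted p = 3.95e-07 and 3.48e-07).

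Ndufb4b, a gene model named after the accessory subunit Ndufb4, had the largest difference among the nuclear members of complex I. The difference was 6.64 ± 1.51 in WT and 4.35 ± 1.51 in KO mice (adjusted p = 0.00178 and 0.0222). Its log2 values were 0, 0 and 4.77 in the WT lungs, 6.53, 5.95 and 0 in the KO lungs, 8.35, 8.51 and 7.85 in the WT hearts and 8.77, 8.12 and 8.64 in the KO hearts. It was at 0 in 3 of the 6 lungs. Its transcript is 99.1% identical to Ndufb4 over 457 nucleotides and 100% to the pseudogene Ndufb4c over 390, so estimated counts can move among the 3. Added together they gave 9.39 to 10.44 in the lungs and 12.18 to 12.53 in the hearts, a difference of 2.26 in WT and 2.76 in KO mice.

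Complex II, which is also succinate dehydrogenase of the citric acid cycle, has 4 subunits and all 4 were higher in the heart in both genotypes. Sdha, the flavoprotein that oxidizes succinate, had log2 values of 11.66, 11.71 and 11.11 in the WT lungs, 11.74, 11.74 and 11.65 in the KO lungs, 14.92, 15.05 and 14.95 in the WT hearts and 14.67, 14.96 and 14.72 in the KO hearts, a difference of 3.48 ± 0.16 in WT and 3.07 ± 0.16 in KO mice (adjusted p = 2e-09 and 6.16e-09). Sdhb, the iron-sulfur subunit, differed by 3.87 ± 0.22 in WT and 4.20 ± 0.22 in KO mice. Of the membrane anchors, Sdhc differed by 3.84 ± 0.27 and 3.57 ± 0.27, and Sdhd by 2.85 ± 0.21 and 3.16 ± 0.21. No heart library overlapped a lung library in any of the 4 genes, and their median difference was 3.66 in WT and 3.37 in KO mice.

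Complex III hands electrons from ubiquinol to cytochrome c. All 8 nuclear members were higher in the heart, with a median difference of 3.21 in WT and 3.69 in KO mice. Uqcrfs1, the Rieske iron-sulfur protein, had log2 values of 10.25, 9.67 and 11.12 in the WT lungs, 10.33, 10.40 and 9.92 in the KO lungs, 14.50, 13.99 and 14.59 in the WT hearts and 14.44, 14.26 and 14.79 in the KO hearts. Hearts and lungs were far apart, WT replicate 3 was the highest lung, and the difference was 4.02 ± 0.31 in WT and 4.28 ± 0.31 in KO mice (adjusted p = 1.42e-07 and 8.58e-08). Uqcrc1, a core protein, differed by 4.10 ± 0.15 in WT and 4.33 ± 0.15 in KO mice (adjusted p = 2.44e-10 and 1.61e-10). The smallest differences of the complex in WT mice belonged to Uqcrh, the hinge protein, at 2.44 ± 0.28 in WT and 3.02 ± 0.28 in KO mice (adjusted p = 5.98e-06 and 8.52e-07), and Uqcr10, at 2.66 ± 0.29 in WT and 3.38 ± 0.29 in KO mice (adjusted p = 4.46e-06 and 5.12e-07). In KO mice Uqcrb had the smallest, at 2.76 ± 0.16.

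ATP synthase joins a catalytic head to a ring of c subunits turned by protons. Of its 17 nuclear members, 16 were called higher in the WT heart and 17 in the KO heart, with a median difference of 3.24 in WT and 3.37 in KO mice. Atp5b had log2 values of 13.36, 13.21 and 13.16 in the WT lungs, 13.23, 13.15 and 13.41 in the KO lungs, 17.30, 17.11 and 17.14 in the WT hearts and 17.002, 17.04 and 17.25 in the KO hearts, a narrow range in each tissue, and differed by 3.94 ± 0.17 in WT and 3.84 ± 0.17 in KO mice (adjusted p = 8.39e-10 and 1.15e-09). Atp5a1, the alpha subunit of the head, differed by 3.598 ± 0.26 in WT and 3.89 ± 0.26 in KO mice. The c subunit of the ring is made from 3 genes that encode one mature protein. Atp5g1 had log2 values of 10.12, 9.97 and 10.003 in the WT lungs, 9.80, 9.88 and 9.10 in the KO lungs, 14.84, 14.27 and 14.999 in the WT hearts and 14.75, 14.75 and 15.19 in the KO hearts and the largest difference of the complex, 4.67 ± 0.23 in WT and 5.31 ± 0.23 in KO mice (adjusted p = 2.9e-09 and 1.13e-09). Atp5g3 differed by 4.002 ± 0.12 in WT and 4.15 ± 0.12 in KO mice (adjusted p = 6.11e-11 and 4.56e-11). Per length the 2 genes were close in the lung, at 0.0198% and 0.0183% of protein-coding abundance, and stood at 0.354% and 0.170% in the heart. Atp5g2 was low, from 3.08 to 4.97 in the lungs and from 5.12 to 7.06 in the hearts, and shares a stretch of 441 identical nucleotides with the transcript Gm10175. Together they gave 9.67 to 10.89 in the lungs and 12.08 to 12.66 in the hearts, and a difference of 2.01 in WT mice, below those of Atp5g1 and Atp5g3. Atp5l, the g subunit near the ring, had the smallest difference after Atp5g2 in WT mice, 2.08 ± 0.21 in WT and 2.59 ± 0.21 in KO mice (adjusted p = 2.09e-06 and 2.88e-07). In KO mice that of Atp5j was the smallest, at 2.39 ± 0.21.

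Complex IV was the most uneven. Of its 18 tested nuclear members, 13 were called higher in the WT heart and 14 in the KO heart, 1 was called lower in each, and the median difference was 2.91 in WT and 3.10 in KO mice. Cox5a, which every complex IV contains, had log2 values of 9.51, 9.42 and 9.75 in the WT lungs, 9.43, 9.73 and 9.42 in the KO lungs, 13.96, 13.64 and 13.78 in the WT hearts and 13.67, 13.79 and 13.85 in the KO hearts and differed by 4.23 ± 0.14 in WT and 4.24 ± 0.14 in KO mice (adjusted p = 1.2e-10 and 1.11e-10). Cox7b, a small subunit present in all tissues, differed by 3.51 ± 0.15 and 3.54 ± 0.15, while Cox7a2l, a Cox7a relative that links complexes III and IV, differed by 0.67 ± 0.22 in WT and 1.06 ± 0.22 in KO mice (adjusted p = 0.0181 and 0.000985). The WT call of Cox7a2l was lost when single replicates were left out. Within the paralogous pairs the difference depended on the form.

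Cox6a2 (chr7:127804607-127805559, GRCm39), the muscle form of subunit 6a, had log2 values of 7.97, 7.84 and 7.47 in the WT lungs, 7.98, 7.68 and 7.27 in the KO lungs, 14.41, 13.97 and 14.48 in the WT hearts and 14.29, 14.30 and 14.60 in the KO hearts. Every heart exceeded every lung. The difference of 6.53 ± 0.20 in WT and 6.75 ± 0.20 in KO mice (adjusted p = 8.54e-11 and 6.25e-11) was the largest among the nuclear members of the complex. Cox6a1 (chr5:115483701-115487050), the form of other tissues, had values of 10.96, 10.24 and 10.25 in the WT lungs, 10.70, 10.57 and 9.76 in the KO lungs, 10.93, 10.07 and 10.71 in the WT hearts and 10.998, 10.30 and 10.82 in the KO hearts, and its lungs and hearts overlapped. The difference of Cox6a1 was 0.085 ± 0.30 in WT and 0.36 ± 0.30 in KO mice (adjusted p = 0.814 and 0.307). Cox6a2 minus Cox6a1 was −2.99 to −2.40 in the lungs and 3.29 to 4.01 in the hearts, so the order of the 2 forms turned over between tissues. Per length, Cox6a2 took 0.00458% and Cox6a1 0.0365% of protein-coding abundance in the lung, against 0.256% and 0.0240% in the heart.

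Cox7a1 (chr7:29883569-29885503, GRCm39), the muscle form of subunit 7a, had log2 values of 7.42, 6.84 and 7.42 in the WT lungs, 7.22, 7.59 and 6.46 in the KO lungs, 13.77, 13.10 and 13.76 in the WT hearts and 13.65, 13.40 and 14.19 in the KO hearts, a difference of 6.31 ± 0.30 in WT and 6.65 ± 0.30 in KO mice (adjusted p = 2.22e-09 and 1.54e-09). Cox7a2, its counterpart in other tissues, rose as well but less, by 2.29 ± 0.26 in WT and 2.50 ± 0.26 in KO mice (adjusted p = 4.91e-06 and 2.28e-06). Cox7a1 minus Cox7a2 lay between −3.90 and −2.86 in the lungs and between 0.32 and 1.13 in the hearts. Cox8b (chr7:140477069-140480359), the muscle form of subunit 8, had log2 values of 7.10, 6.22 and 7.42 in the WT lungs, 6.47, 7.71 and 5.83 in the KO lungs, 13.21, 12.47 and 13.12 in the WT hearts and 13.10, 12.92 and 13.29 in the KO hearts and differed by 6.02 ± 0.41 in WT and 6.43 ± 0.41 in KO mice (adjusted p = 5.62e-08 and 3.35e-08). Cox8a, the form of other tissues, differed by 0.20 ± 0.28 in WT and 1.04 ± 0.28 in KO mice (adjusted p = 0.54 and 0.00497), with lungs 10.51 to 11.87 and hearts 11.05 to 12.12. The KO call of Cox8a was lost with 1 replicate left out. Cox8b minus Cox8a was −4.74 to −3.24 in the lungs and 1.01 to 1.41 in the hearts. On counts Cox8b was thus the higher form in the heart, but per length it took 0.0327% against 0.0529% for Cox8a.

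Of the other 3 pairs, Cox4i and Ndufa4 went the opposite way. Cox4i2 (chr2:152595625-152606959, GRCm39) had log2 values of 8.35, 8.48 and 8.44 in the WT lungs, 8.06, 8.396 and 8.11 in the KO lungs, 6.52, 6.39 and 6.91 in the WT hearts and 7.13, 6.65 and 6.93 in the KO hearts, with every heart below every lung, and differed by −1.82 ± 0.19 in WT and −1.29 ± 0.19 in KO mice (adjusted p = 3.32e-06 and 7.09e-05). Its partner Cox4i1 was higher in the heart by 3.09 ± 0.25 in WT and 3.15 ± 0.25 in KO mice. Ndufa4l2, known as a gene of the hypoxia response, stayed between 7.10 and 8.18 over all 12 libraries, while Ndufa4, which belongs to complex IV despite its name, was higher in the heart by 2.80 ± 0.20 and 3.28 ± 0.20. Cox6b2, the testis form of subunit 6b, did not exceed 4.26 in any library, and Cox6b1 was higher in the heart by 2.91 ± 0.24 and 3.03 ± 0.24. Cox6b2 was thus at or near the floor, and at 0 in the heart of WT replicate 3, so no shift is read from that pair. For each of the other 5 pairs, the difference between the forms shifted in one direction in 6 of 6 mice (exact two-sided sign-flip permutation test over 6 mice, p = 0.0312 and 0.0312 after Benjamini-Hochberg adjustment over all 6 pairs, the smallest p that 6 mice can give). The mean shifts were 6.42 ± 0.30 for Cox6a, 5.61 ± 0.53 for Cox8 and 4.09 ± 0.61 for Cox7a. They were −4.67 ± 0.35 for Cox4i and −2.96 ± 0.80 for Ndufa4 (SD, n = 6).

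**Figure D2:**
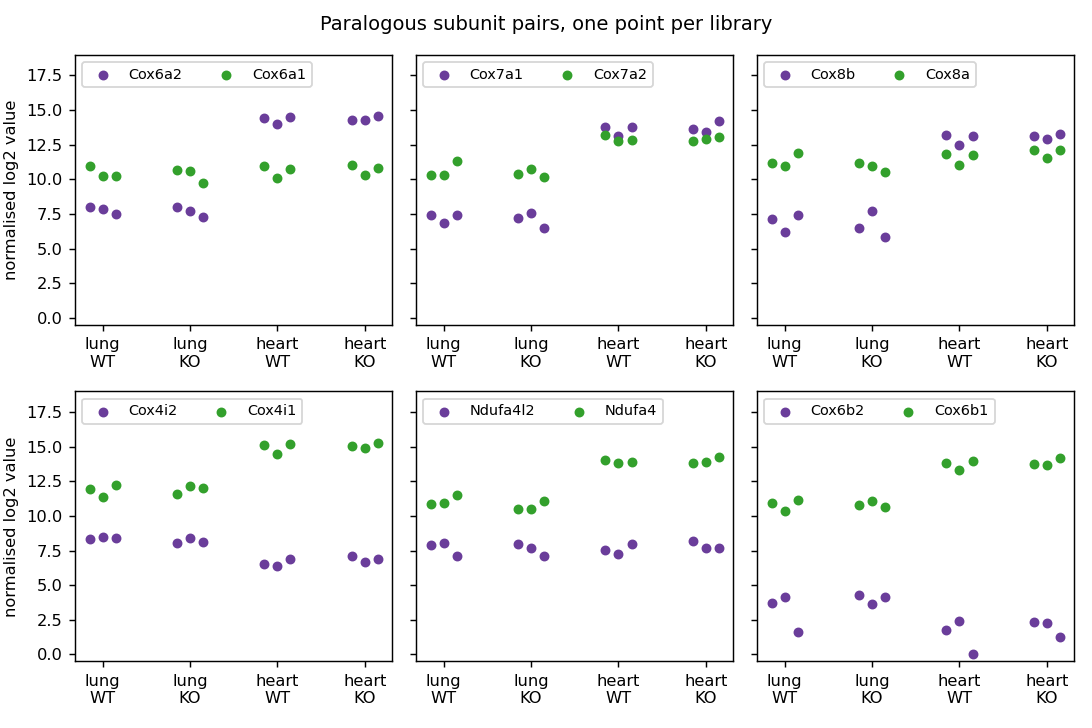
Log2 values (y axis) of the 2 genes of each paralogous pair in every library, grouped by tissue and genotype (x axis), 1 point per library. The purple points of Cox6a2, Cox7a1 and Cox8b cross from below the green points in the lung to above them in the heart, whereas Cox4i2, Ndufa4l2 and Cox6b2 stay below their partners.

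Lung libraries also held RNA of heart muscle. Myh6, the atrial and adult mouse ventricular myosin heavy chain, had log2 values of 12.46 to 14.24 in the lungs and 20.05 to 20.44 in the hearts, and none of the 10 genes of the heart muscle list was at 0 in all lungs. The summed list lay between 14.10 and 14.92 in the WT lungs, between 13.66 and 14.14 in the KO lungs and between 21.01 and 21.25 in the hearts. Relative to Actc1, cardiac actin, Cox6a2 stood at −3.39 to −3.05 in the lungs and −3.73 to −2.87 in the hearts, and Cox7a1 at −4.21 to −3.28 and −4.61 to −3.28. Cox8b stood at −4.83 to −3.26 and −5.24 to −4.18. The lung and heart ranges of all 3 genes overlapped on this scale. Relative to Myh6, Cox6a2 stood at −6.77 to −4.78 in the lungs and −6.12 to −5.64 in the hearts. Cox7a1 stood at −6.82 to −4.87 and −6.99 to −6.19, and Cox8b at −6.98 to −4.75 and −7.63 to −6.84. These ranges overlapped too, but the lung means were higher: −5.48 and −5.88 for Cox6a2, −6.02 and −6.57 for Cox7a1 and −6.39 and −7.20 for Cox8b. Cox7a1 and Cox8b are also genes of brown fat, whose uncoupling protein gene Ucp1 ranged from 4.75 to 10.43 in the lungs and from 4.58 to 11.75 in the hearts. The lung with the highest Ucp1, KO replicate 2, also had the highest Cox7a1 and Cox8b of the lungs. The summed list of 6 adipocyte genes lay between 9.36 and 12.29 in the lungs and between 9.65 and 13.02 in the hearts, and that of 7 skeletal muscle genes between 5.75 and 11.64 and between 12.56 and 14.32. The part of muscle or fat RNA in the lung values of the 3 muscle forms was not tested.

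The 250 bases upstream of the start sites of Cox7a1, Cox7a2, Cox8b and Cox8a are shown because these genes make up 2 pairs whose order turned over between lung and heart on the count scale. Capitals mark each CG dinucleotide. The sequences are RefSeq promoters of GRCm38.p6, each read on its gene's strand, at chr7:30183921-30184170 (plus strand), chr9:79759854-79760103 (minus strand), chr7:140900447-140900696 (minus strand) and chr19:7217617-7217866 (minus strand).
Cox7a1: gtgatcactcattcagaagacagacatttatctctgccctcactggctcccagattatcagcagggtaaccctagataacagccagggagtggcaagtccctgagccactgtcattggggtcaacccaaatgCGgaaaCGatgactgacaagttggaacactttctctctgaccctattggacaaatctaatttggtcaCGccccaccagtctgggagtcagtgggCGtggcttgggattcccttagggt
Cox7a2: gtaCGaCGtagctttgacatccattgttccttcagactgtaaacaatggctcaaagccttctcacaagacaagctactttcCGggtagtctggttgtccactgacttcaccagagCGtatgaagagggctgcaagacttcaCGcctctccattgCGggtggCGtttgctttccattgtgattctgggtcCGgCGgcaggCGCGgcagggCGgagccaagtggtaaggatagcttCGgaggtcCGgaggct
Cox8b: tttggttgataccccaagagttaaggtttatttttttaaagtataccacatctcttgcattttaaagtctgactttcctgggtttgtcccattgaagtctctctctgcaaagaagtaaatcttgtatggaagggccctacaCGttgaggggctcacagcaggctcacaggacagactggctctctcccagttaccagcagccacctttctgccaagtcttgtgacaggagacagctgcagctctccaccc
Cox8a: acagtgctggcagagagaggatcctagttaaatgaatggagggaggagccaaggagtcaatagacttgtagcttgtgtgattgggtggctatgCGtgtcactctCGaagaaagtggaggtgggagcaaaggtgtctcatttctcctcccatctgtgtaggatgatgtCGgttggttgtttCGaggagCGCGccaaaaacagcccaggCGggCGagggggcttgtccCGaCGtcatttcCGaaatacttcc

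The muscle forms had 4 CG dinucleotides (Cox7a1) and 1 (Cox8b) in this window, and their counterparts had 14 (Cox7a2) and 11 (Cox8a). The median was 14 over the 70 nuclear members with a promoter in the reference table and 6 over all 27025 genes in it. For genes with several promoters, the medians use the promoter with the most CG dinucleotides, while the counts of the genes shown are those of the printed promoter. Short motifs were searched on both strands of the 250 upstream bases, and a gene was counted if any of its promoters held a match. The GABPA site CCGGAAG was found in 12 of 70 members (17.1%) and in 7.83% of all genes, the NRF1 core GCATGCGC in 8 of 70 members (11.4%) and in 2.56% of all genes and the ERR half-site AAGGTCA in 5 of 70 members (7.14%) and in 4.70% of all genes. These 3 factors are known regulators of respiratory chain genes. The muscle E-box CAGCTG was found in 6 of 70 members (8.57%) and in 14.7% of all genes, Cox8b among them and none of the other 3 shown, and the MEF2 core TAAAAATA in 0 of 70 members (0.00%) and in 2.84% of all genes. The GABPA and NRF1 strings contain a CG, and the shares of members and of all genes were not matched for CG content. A match is a string of letters in a window and was not tied to binding here.

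Tissue forms also arose from splicing within single subunit genes. Atp5c1 (Atp5f1c in newer annotation), the gamma subunit at the centre of the ATP synthase rotor, lies on the minus strand of chromosome 2 and has an alternative exon of 37 bases near its 3′ end, chr2:10061581-10061617 in GRCm39. The form with the exon (ENSMUST00000114897) ends its reading frame within it, and the form without it (ENSMUST00000026887), known from heart and skeletal muscle, ends in the last exon. The ends of the 2 reading frames are shown with the bases before the splice junction in lower case, those after it in capitals and the stop codon last. The third line gives 20 intron bases in lower case and the start of the exon in capitals (chr2:10061611-10061637, minus strand).
With the exon: tggggctgctgctctGGATTAA
Without the exon: tggggctgctgctctGTAA
Start of the exon: tttcctaatataataaccagGGATTAA

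The form with the exon made up 55.6, 46.5 and 41.9% in the WT lungs, 48.9, 42.6 and 51.1% in the KO lungs, 4.31, 3.01 and 5.16% in the WT hearts and 5.87, 3.92 and 5.02% in the KO hearts of the estimated counts of Atp5c1. The lungs held both forms at similar levels, the hearts had little of this one, and no lung overlapped a heart. The form without the exon rose from 52.2% ± 5.21 to 95.3% ± 1.07 (SD, n = 6), a difference of 43.1 percentage points in the same direction in 6 of 6 mice (exact two-sided sign-flip permutation test, p = 0.0312, the smallest that 6 mice can give). Ndufv3, an accessory subunit of the NADH-binding arm of complex I, has an alternative exon of 1092 bases (364 codons) at chr17:31746284-31747375 in GRCm39. The long form with it (ENSMUST00000046288) made up 41.0, 41.9 and 43.9% in the WT lungs, 36.7, 37.8 and 48.5% in the KO lungs, 5.54, 5.36 and 4.10% in the WT hearts and 5.86, 4.80 and 3.84% in the KO hearts. The short form (ENSMUST00000064798) rose from 56.7% ± 4.78 in the lung to 94.98% ± 0.884 (SD, n = 6) in the heart, by 38.2 percentage points and in 6 of 6 mice (exact sign-flip permutation test, p = 0.0312). Within each tissue the WT and KO shares of both genes overlapped. The shares are model estimates from short reads. In a search chosen after these values were seen, 92 members had at least 50 estimated counts in every library, and 4 of them had a transcript whose share moved by at least 20 points in one direction in 6 mice: these 2 genes, Ndufa5 and Ndufb2. This is 4.35% of those members, beside 8.48% of the 10100 genes of the transcript table that met the same minimum. The Ndufa5 transcripts that moved were a retained intron model and a model without a defined coding sequence, and those of Ndufb2 were protein coding.

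**Figure D3:**
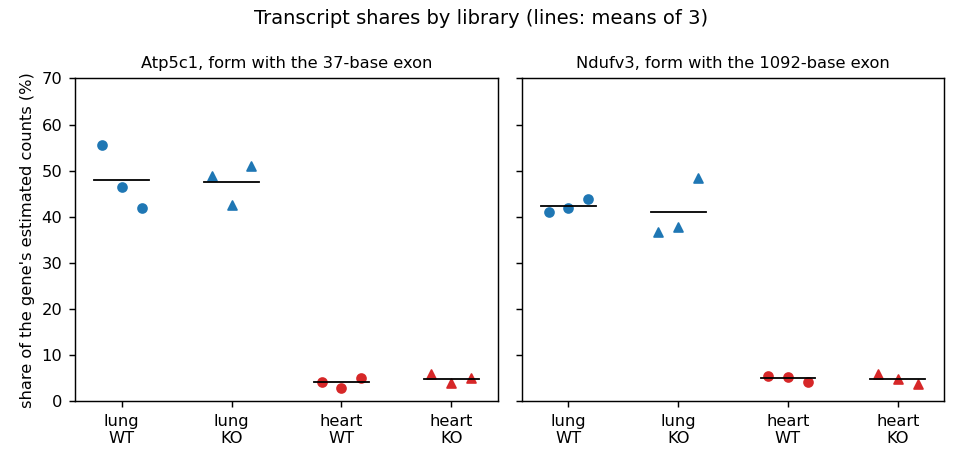
Share of the gene's estimated counts in percent (y axis) assigned to the Atp5c1 form with its alternative exon (left) and the Ndufv3 form with its alternative exon (right), in each library by tissue and genotype (x axis), with lines at the means of 3. All lungs lie between 36.7 and 55.6%, and all hearts at or below 5.87%.

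The mitochondrial mRNAs are cut from long transcripts of both mtDNA strands, and several of their genes overlap. The shared bases of 2 pairs on the plus strand are shown. Within GRCm39 the last bases of mt-Atp8 are the first of mt-Atp6 (chrM:7927-7969, plus strand), and mt-Nd4l and mt-Nd4 share 7 bases (chrM:10167-10173, plus strand). These overlaps are shown because reads within them cannot be given to 1 gene. In the first, capitals mark the start codon of mt-Atp6 and the stop codon of mt-Atp8.
mt-Atp8 and mt-Atp6: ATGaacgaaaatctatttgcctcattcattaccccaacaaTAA
mt-Nd4l and mt-Nd4: ATGCTAA

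All 13 mitochondrial mRNAs had positive heart minus lung differences, 12 of them called in WT and 13 in KO mice, with a median of 4.20 in WT and 3.55 in KO mice. mt-Co1 had log2 values of 17.18, 17.22 and 17.63 in the WT lungs, 16.99, 16.72 and 17.15 in the KO lungs, 21.02, 21.60 and 20.89 in the WT hearts and 20.64, 21.43 and 20.95 in the KO hearts, and no lung came near a heart. It differed by 3.82 ± 0.45 in WT and 4.06 ± 0.45 in KO mice (adjusted p = 7.73e-06 and 4.65e-06). mt-Cytb, the cytochrome b of complex III, differed by 4.29 ± 0.39 in WT and 3.47 ± 0.39 in KO mice (adjusted p = 8.3e-07 and 5.93e-06). Of the complex I mRNAs, mt-Nd1 differed by 4.31 ± 0.44 in WT and 3.55 ± 0.44 in KO mice (adjusted p = 2.14e-06 and 1.26e-05) and mt-Nd4 by 4.20 ± 0.41 in WT and 2.85 ± 0.41 in KO mice (adjusted p = 1.41e-06 and 4.72e-05). mt-Nd2, mt-Nd3 and mt-Nd5 lay 4.25 to 4.68 higher in the WT and 2.72 to 4.46 higher in the KO heart. mt-Nd6, the 1 mRNA read from the other mtDNA strand, differed by 3.45 ± 0.32 in WT and 3.82 ± 0.32 in KO mice (adjusted p = 8.62e-07 and 3.52e-07). The ATP synthase mRNAs mt-Atp6 and mt-Atp8 differed by 3.43 ± 0.56 and 3.603 ± 0.87 in WT and by 3.16 ± 0.56 and 3.56 ± 0.87 in KO mice. mt-Nd4l, at 0 in the lung of WT replicate 3, differed by 6.69 ± 1.28 and 4.85 ± 1.28. Added to Gm10222, a nuclear copy identical over 294 nucleotides, it ranged from 6.38 to 8.57 in the lungs and from 10.70 to 12.84 in the hearts, and differed by 4.18 in WT and 3.33 in KO mice. Without copies added, mt-Atp8 and mt-Nd4l each lost their KO call with 1 replicate left out.

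mt-Co3, the third mtDNA subunit of complex IV, was the exception, with log2 values of 14.79, 12.17 and 15.32 in the WT lungs, 12.13, 7.77 and 7.30 in the KO lungs, 16.71, 18.73 and 14.70 in the WT hearts and 18.16, 18.61 and 16.30 in the KO hearts. Its lungs spread over more than 8 on this scale and overlapped the hearts. The heart minus lung difference was 2.62 ± 1.30 in WT and 8.63 ± 1.30 in KO mice (adjusted p = 0.0914 and 6.94e-05). A stretch of chromosome 1 holds nuclear copies of several mitochondrial genes, and the copy of mt-Co3 there, Gm28437 (chr1:24652270-24653052, GRCm39), is 100% identical over 783 nucleotides, so reads within that stretch fit both. With Gm28437 added, mt-Co3 had values of 16.03, 15.94 and 16.56 in the WT lungs, 16.16, 16.12 and 15.66 in the KO lungs, 20.10, 20.49 and 19.35 in the WT hearts and 19.37, 20.08 and 19.28 in the KO hearts. The range then narrowed in both tissues and the groups no longer overlapped. The difference became 3.80 in WT and 3.59 in KO mice (adjusted p = 2.14e-06 and 3.63e-06, a sum chosen after seeing the data). mt-Co2 and Gm28661 (chr1:24653966-24654646) are identical over 681 nucleotides. mt-Co2 alone ranged from 10.32 to 14.99 in the lungs and from 15.76 to 17.43 in the hearts, and with its copies from 14.56 to 15.12 in the lungs and from 18.23 to 19.08 in the hearts. mt-Atp6 and Gm10925 (chr1:24653055-24653732) are identical over 678 nucleotides and together ranged from 13.18 to 13.85 in the lungs and from 16.56 to 18.10 in the hearts. mt-Co1 moved little when its copies were added, to 17.04 to 17.77 in the lungs and 20.77 to 21.71 in the hearts. With all copies added, the mitochondrial share of protein-coding abundance was 4.73% ± 0.171 in the lung and 32.0% ± 8.28 (SD, n = 6) in the heart.

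**Figure D4:**
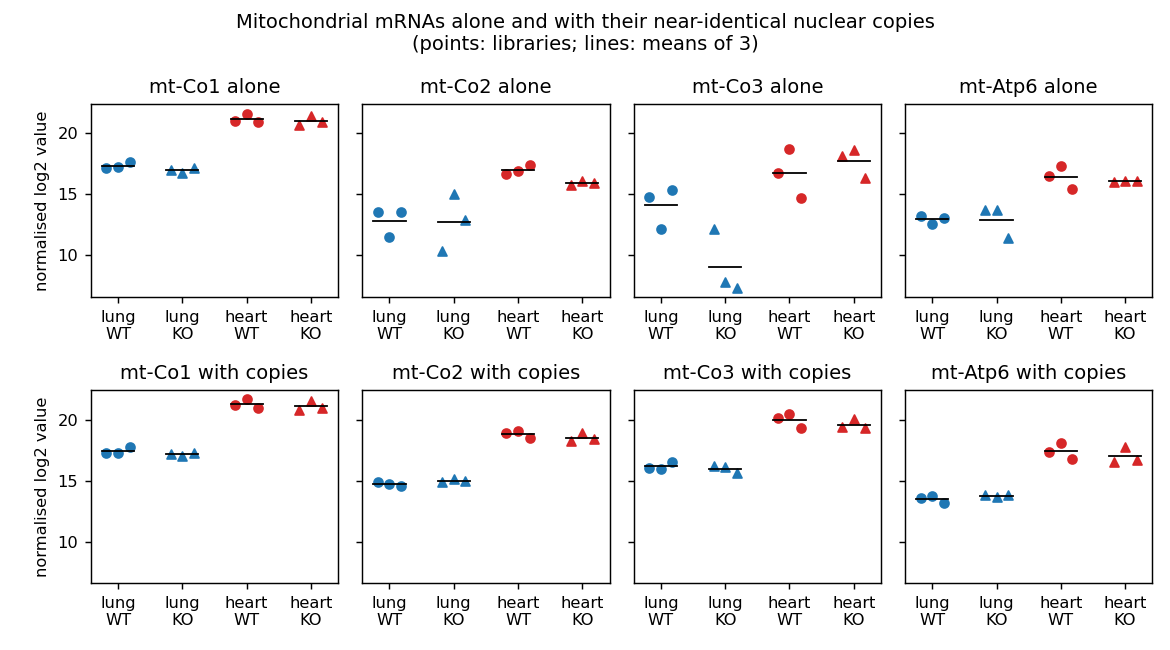
Log2 values (y axis) of 4 mitochondrial mRNAs in each library by tissue and genotype (x axis), alone in the upper row and with their near-identical nuclear copies added in the lower row, with lines at the means of 3. With copies added, the 6 lungs lie within 15.66 to 16.56 for mt-Co3, 14.56 to 15.12 for mt-Co2 and 13.18 to 13.85 for mt-Atp6, each a narrower range than without them, while the KO hearts of mt-Atp6 and mt-Co2 lie farther apart than without them, and the points of mt-Co1 change little.

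To set mitochondrial against nuclear subunits within a library, the mean log2 value of the 85 tested nuclear members was subtracted from that of the 13 mitochondrial mRNAs. This score was 2.30, 2.14 and 1.03 in the WT lungs, 1.82, 1.59 and 2.10 in the KO lungs, 2.67, 3.95 and 2.25 in the WT hearts and 2.40, 3.21 and 1.90 in the KO hearts. The heart was above the lung of the same mouse in 5 of 6 mice, by 0.90 ± 0.78 (SD, n = 6), and KO replicate 3 was the exception. With copies added, it was above in 4 of 6 mice, by 0.56 ± 0.95, with the WT mice at 0.44 to 1.35 and the KO mice at −0.97 to 1.44. Taken instead as log2 of the summed values on the linear scale, not per length, which gives weight to the abundant members, the heart minus lung mean was 0.45 ± 0.57 and above 0 in 5 of 6 mice, and 0.39 ± 0.57 and above 0 in 4 of 6 mice with copies added (SD, n = 6). The score is a description of the libraries and was not tested. Among the hearts, WT replicate 2 had the highest value of the 6 hearts in 11 of 13 mitochondrial mRNAs and the lowest in 57 of 85 nuclear subunits. KO replicate 3 was the highest heart in 62 of 85 nuclear subunits and the lowest in 5 of 13 mitochondrial mRNAs. Among the lungs, WT replicate 3 was the highest in 53 of 85 nuclear subunits and the lowest in 7 of 13 mitochondrial mRNAs.

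Loss of Adam19 was compared with WT within each tissue, and no member passed the test in either. In the lung 0 of 98 members were called by limma, and 0 by limma-voom, against 0.0363% of all 16551 tested genes higher and 0.0302% lower in KO, and the lowest adjusted p of a member was 0.783. At an unadjusted p under 0.05 there were 8 members, of which 7 had lower means in KO. This is 8.16% of the members, beside 5.93% of all tested genes. The differences leaned to the lower side: 74 of 98 members were below 0, with a median of −0.19, against 48.4% of all tested genes and a median of 0.010. Complex I accessory subunits did so in 28 of 31 (median −0.26), complex III in 7 of 8 (−0.32), complex IV in 13 of 18 (−0.14) and complex V in 12 of 17 (−0.21), while complex II was split 2 and 2. The complex I core did so in 5 of 7 (−0.10), and the mitochondrial mRNAs were split, with 7 below and 6 above 0 (−0.049). Single libraries carried much of the lean of the nuclear members. Without WT replicate 3 the median of the nuclear members was −0.041, without KO replicate 3 it was −0.097 and without WT replicate 2 −0.36, in place of −0.21. WT replicate 3 was also the lung with the least Rn7s1, 2.10% against 3.22 to 34.0% in the other 5, and the 10 heart muscle genes had a median difference of −0.58 in the same comparison with 0 of 10 genes called. Of the other marker lists, none with a called gene, the median difference was −1.28 for 3 tested skeletal muscle genes, −1.08 for 5 red blood cell genes, −0.19 for 8 lung epithelium genes, 0.0075 for 4 endothelium genes and 0.39 for 6 adipocyte genes. The part of any of these in the lung result was not tested. The KO and WT lungs did not overlap in 12 members, 10 lower and 2 higher in KO, where 6.4% of all tested genes had every KO lung below every WT lung and 6.41% above.

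Ndufb2, a small membrane-arm subunit of complex I, had lung values of 9.50, 9.13 and 10.54 in WT and 8.65, 8.45 and 8.13 in KO mice. All KO lungs were below all WT lungs, and the difference was −1.31 ± 0.34 (adjusted p = 0.783). Cox7c, a small complex IV subunit, had values of 10.18, 9.24 and 10.74 in WT and 9.31, 9.32 and 9.04 in KO, which overlapped, for a difference of −0.83 ± 0.33 (adjusted p = 0.809). The 3 members with the largest lung differences by size were mt-Co3 (−5.03 ± 1.24), Ndufb4b (2.57 ± 1.85) and mt-Nd4l (1.76 ± 1.53), each of them a gene with a near-identical copy. Added to its copies, mt-Co3 differed by −0.20, mt-Nd4l by 0.23, and Ndufb4b changed sign to −0.42. Without KO replicate 1, mt-Co3 without its copy passed the test at −6.56 (adjusted p = 0.0479). The core subunit Ndufs1 differed by −0.082 ± 0.19, Uqcrfs1 by −0.13 ± 0.33, Cox5a by −0.032 ± 0.17 and Atp5b by 0.019 ± 0.15, all within the spread between mice.

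In the heart 0 of 97 tested members were called by limma, and 0 by limma-voom, against 0.0457% of all 15303 tested genes higher and 0.0392% lower in KO, and 1 member, mt-Co2, had an unadjusted p under 0.05, 1.03% beside 7.46% of all tested genes. Nuclear and mitochondrial members leaned apart here. Of 84 nuclear members 67 were above 0, with a median of 0.090 against 0.032 over all tested genes, of which 55.0% were above 0. Of 13 mitochondrial mRNAs 11 were below 0, with a median of −0.37. Without WT replicate 2, the nuclear median was −0.034 and the mitochondrial median −0.087, and without KO replicate 3 they were −0.027 and −0.24, so the nuclear lean changed sign without either. In the marker lists, none with a called gene, medians were −0.051 (10 heart muscle genes), 0.49 (6 lung epithelium genes) and 0.38 (6 adipocyte genes). They were −0.28 for 5 red blood cell genes, −0.13 for 2 skeletal muscle genes and 0.054 for 4 endothelium genes. The part of any of these in the heart result was not tested. mt-Co2 had heart values of 16.66, 16.90 and 17.43 in WT and 15.76, 16.05 and 15.94 in KO mice. It was the 1 member in which the KO and WT hearts did not overlap, against 5.23% of all tested genes with every KO heart below and 7.82% with every KO heart above the WT hearts. Its difference was −1.08 ± 0.23 (adjusted p = 0.302), and −0.31 once its copies were added. mt-Co3 (0.98 ± 0.93) and Atp5g2 (1.001 ± 0.46) were the other members with the largest differences by size, and with their copies added mt-Co3 turned to −0.40 and Atp5g2 was at 0.071. Among the muscle forms, Cox6a2 differed by 0.11 ± 0.17, Cox7a1 by 0.20 ± 0.24 and Cox8b by 0.17 ± 0.21. Among core subunits Ndufs1 differed by 0.0087 ± 0.16, Sdha by −0.18 ± 0.14, Uqcrfs1 by 0.13 ± 0.21 and Atp5b by −0.089 ± 0.19.

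**Figure D5:**
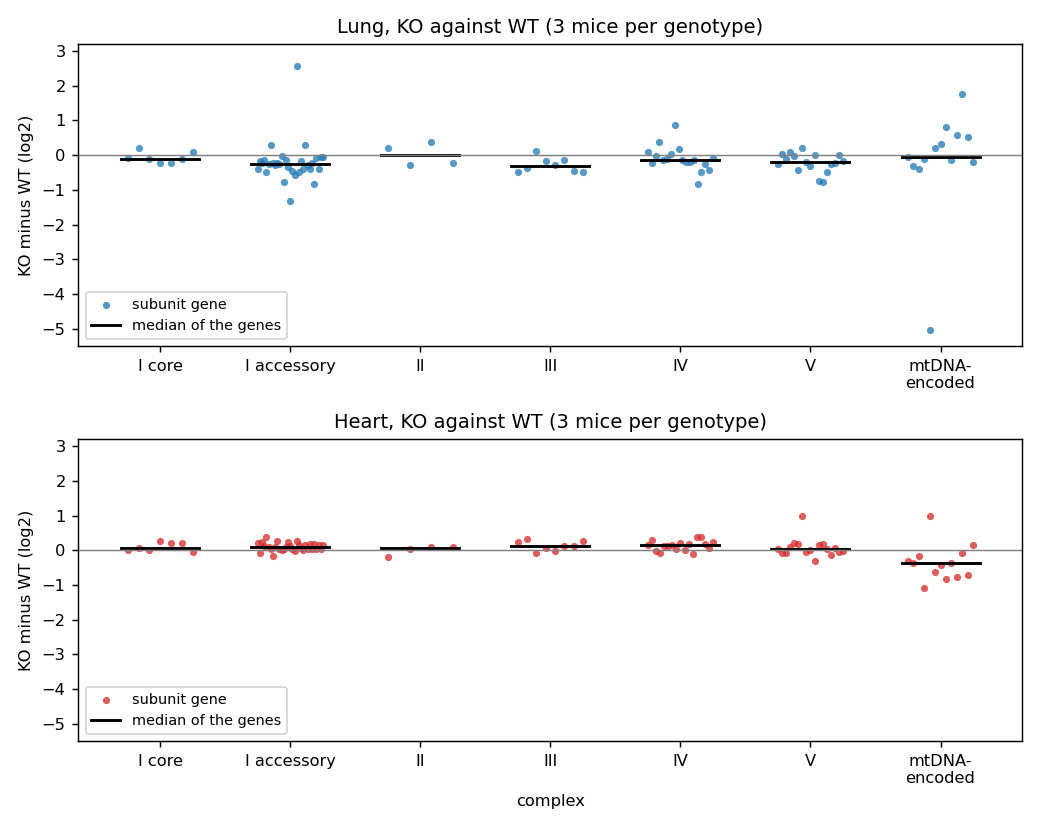
Difference of KO minus WT on the log2 scale (y axis) for each tested subunit gene by complex (x axis), in the lung (upper panel, blue) and heart (lower panel, red), with black lines at the median of the genes. Medians of the groups stay between −0.37 and 0.15, and the 4 points farthest from 0 in the lung are mt-Co3, Ndufb4b, mt-Nd4l and Ndufb2, and the 3 in the heart mt-Co2, Atp5g2 and mt-Co3.

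Whether the genotype effect differed between tissues was tested as an interaction over all 12 libraries. No member was called (0 of 98 by limma and 0 by limma-voom), against 0.00566% of the 17666 tested genes more positive in the heart and 0% more negative, and the lowest adjusted p of a member was 0.517. At an unadjusted p under 0.05 there were 8 members, 8.16%, beside 7.88% of all tested genes. By direction, 70 of 85 nuclear members were more positive in the heart, beside 53.9% of all tested genes. Of the mitochondrial mRNAs, 10 of 13 were more negative, beside 46.1% of all tested genes. These leans combine those within each tissue, which moved when single libraries were left out, and were not tested.

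Genes that work with the subunits were compared in the same fits. Of the assembly factors, which build the complexes and stay out of them, 43 of 46 tested genes were called higher in the WT heart and 43 in the KO heart, with a median of 1.67 in WT mice and 1.71 in KO mice. Surf1 of complex IV assembly, at 0.12 in WT, was not called. Another list held carriers, subunits and related genes that the symbol rule leaves out. Of these, 8 of 8 tested genes were called higher in the WT heart and 8 in the KO heart. Among them were Cyc1, the cytochrome c1 of complex III, at 4.25, and Slc25a4, the muscle form of the ADP/ATP carrier, at 4.88. The general form Slc25a5 was at 0.95. Of general mitochondrial proteins, 11 of 12 tested genes were called higher in the WT heart and 12 in the KO heart, with a median of 2.09 in WT mice. Of regulators of mitochondrial genes, 14 of 21 tested genes were called higher in the WT heart and 14 in the KO heart, and 1 was called lower in each. The coactivator Ppargc1a differed by 4.996 and its partner Esrra by 2.94 in WT, and Tfam, which packages and transcribes mtDNA, by 0.91. Nrf1 differed by −0.63 in WT and −0.76 in KO, called in KO only, and Gabpa, at 0.56 and 0.51, was called in neither. None of the genes of these 4 lists was called between genotypes in either tissue.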

How the data were processed

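Total RNA of lung and heart was sequenced by the authors on strand-specific libraries and quantified with Salmon against mouse transcripts of mm39, and they deposited a gene table and a transcript table. All deposited values are on a log2 scale: transcript values are log2(1 + estimated count), and gene values carry a further adjustment between libraries, with constants of −0.63 to 0.80, whose method is not given in the sources used here. The values are not counts, so the main test was run on the log2 scale. How genes were summed from transcripts is not stated. Near-identical copies share reads.

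Genes with a log2 value of at least 3.46 (10 estimated counts) in at least 3 libraries were tested with limma 3.58.1 (R 4.3.3), letting the variance follow abundance. Each tissue was fitted alone for KO against WT, and all 12 libraries together for heart against lung and for the interaction. P-values were adjusted over all tested genes (Benjamini-Hochberg). Calls needed an adjusted p under 0.05, a 1.5-fold difference and 1 group mean reaching 6. Differences are given ± SE. As alternatives, limma-voom on the values turned back to estimated counts, other filters, centring, sums of transcripts and copies, a replicate block and fits without each replicate were run. Fit and filters were tested on simulated data. A test of the mitochondrial minus nuclear score had been planned and is not given, since the score averages over the members. Shares per length used estimated counts divided by transcript length, from GENCODE vM39 on GRCm39, the assembly of the tables. Copies were found with blastn 2.17.0 (95% identity or more along 200 nucleotides or more that span 80% of the shorter transcript). Genes named are the mitochondrial mRNAs, complex II, the paralogous pairs, defining subunits and the 3 largest genotype differences per tissue. Also named are the 2 largest and 2 smallest WT tissue differences among the nuclear members of complexes I, III, IV and V. Ndufb2, Cox7c, Uqcrb and Atp5j were named after their values were seen. Members and lists were chosen with earlier results of these data known.

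Lung and heart were paired by the mouse identifiers in the labels. Over 17666 genes the deviations of lung and heart of a mouse from their group means correlated between −0.068 and 0.14. Each replicate is a separate mouse, and 3 mice against 3 cannot reach an exact permutation p under 0.10. Libraries of a group differed by a median of 0.16 to 0.39 on the log2 scale.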

Additional observations from a re-analysis of the deposited data

How the results depend on the processing

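In WT mice 90 to 92 members were higher in the heart when a mouse was left out, and 91 with a replicate block for the paired tissues of a mouse. In KO mice the block gave 94, as without it, and changed no other count. The 1 count that moved by over 1.5 times was that of the lung genotype comparison, where leaving out a library gave 0 to 1 members. With copies summed, an alternative chosen after seeing the data, 95 of 100 tested members were higher in the WT heart and 96 in the KO heart. These counts hold some sums more than once. Cox6c2 and Ndufs6b, untested otherwise, took the same sums as Cox6c and Ndufs6, and Ndufb4, Ndufb4b and Ndufb4c shared the same sum. Centring on other genes raised the WT medians of the complexes, to 3.77 (I core), 3.12 (I accessory), 3.47 (III), 3.17 (IV), 3.50 (V) and 3.37 (all nuclear). With a mouse left out, the accessory complex I median was 2.85 to 2.99 and that of complex V 3.03 to 3.28 in WT. The KO minus WT median of the mitochondrial mRNAs in the lung was −0.049, −0.080 to 0.31 with a library left out and 0.23 with copies summed. Between genotypes, where no member was called with all libraries, 47 of 98 members changed sign in the lung and 66 of 97 in the heart under at least 1 alternative. Among the members with printed differences these were mt-Nd4l in the lung (−0.20 to 3.26 with a library left out, negative without WT replicate 3), Ndufb4b in the lung (−0.42 with copies summed) and mt-Co3 in the heart (−0.40 with copies summed and −0.024 to 1.99 with a library left out, negative without WT replicate 3), and members with differences near 0. In the lung, with a library left out, the latter were Atp5b (−0.053 to 0.078), Cox5a (−0.14 to 0.063), Ndufs1 (−0.22 to 0.11) and Uqcrfs1 (−0.47 to 0.26), and with summed transcripts Atp5b was −0.037. In the heart they were Cox6a2 (−0.046 to 0.21), Cox7a1 (−0.021 to 0.37), Cox8b (−0.065 to 0.31), Ndufs1 (−0.12 to 0.099) and Uqcrfs1 (−0.052 to 0.25), with Ndufs1 at −0.039 centred on other genes and Atp5b at 0.067 with summed transcripts. Between WT tissues 3 members changed sign, Cox6a1 (−0.10 to 0.21 with a mouse left out, negative without replicate 3), Cox8a (−0.018 to 0.36, negative without replicate 1) and Ndufa4l2 (0.18 centred and −0.56 to 0.26, positive without replicate 1 or 2). Cox7a2l lost its WT call without replicate 1 or 2 (0.47 and 0.57), and in KO mice mt-Atp8, mt-Nd4l, Cox8a and Ndufb4b each lost theirs without 1 replicate. Cox6b2 fell under 10 counts, so that pair gave no value under that requirement. The cause of these changes was not tested. With 3 mice per group, an uncalled difference between genotypes does not show that the groups were alike.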
